A study of Mus musculus with 12 samples.

Results

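A set of genes of the perivascular astrocyte endfoot was examined in midbrain astrocytes of mice with and without Cd38, the gene of an ectoenzyme that breaks down NAD. The genes were taken by symbol and are 8 of 20614 genes in the expression table: Aqp4, Dag1, Dtna, Dmd, Kcnj10, Kcnj16, Atp1b2 and Mlc1. RNA was measured in 12 libraries of male mice aged 12 to 14 months, 3 from Cd38+/+, 3 from Cd38+/- and 6 from Cd38-/- animals. The Cd38-/- allele is a germline disruption (B6.129P2-Cd38tm1Ln/J) on a C57BL/6J background, so Cd38 is disrupted in every cell of these mice and not in astrocytes alone. Striatum, thalamus and substantia nigra were dissected together, and astrocytes were collected on magnetic beads against ACSA-2 after other cells had been depleted. Nothing in the labels says whether libraries of a genotype came from separate animals, so the p-values measure the spread between these libraries.

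Astrocyte endfeet cover the blood vessels of the brain. Aquaporin-4, the product of Aqp4, is the main water channel there and lets water follow osmotic gradients between blood, interstitium and cell. It is held in the vessel-facing membrane by the dystrophin complex, in which dystroglycan (Dag1) binds laminins and agrin of the basal lamina, dystrophin (Dmd) binds dystroglycan from inside the cell, and alpha-dystrobrevin (Dtna) binds dystrophin. The inward rectifier Kir4.1 (Kcnj10) lies at the same membrane, alone or with Kir5.1 (Kcnj16), and carries the potassium that neurons release, while the sodium pump, whose glial beta subunit is encoded by Atp1b2, takes potassium up against its gradient. Mlc1 encodes a membrane protein of astrocyte junctions at endfeet that acts in the recovery of cell volume after swelling. The comparisons ask whether the RNA of the water channel moved with that of its anchors and with that of the potassium channels and pump.

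Cd38 itself was checked first. Its values were 149, 120 and 105 TPM (a share of the library scaled for transcript length) in Cd38+/+ libraries, 90.8, 90.7 and 90.4 TPM in Cd38+/- libraries, and 8.54 to 21.9 TPM with a median of 15.7 in Cd38-/- libraries. The genotypes did not overlap. Summed TPM of 12 astrocyte markers lay between 13788 and 21318 in all libraries, and none of these markers was listed at 0 in any library. The medians of this sum were 17554 TPM in Cd38+/+, 21136 TPM in Cd38+/- and 17161 TPM in Cd38-/- libraries. The number of genes above 0 TPM was 13160 to 13516 in Cd38+/+ libraries and 15920 to 17906 in the others, and the median SD of a gene on the log2 scale was 0.48 within Cd38+/+, beside 0.20 for Cd38+/- and 0.23 for Cd38-/-, so the Cd38+/+ libraries stood apart in each comparison that uses them. All 8 genes were far above the filter on low values in every genotype, the lowest mean being that of Kcnj10, and all were tested in all 3 comparisons.

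In Cd38-/- astrocytes, Aqp4 rose and was the only one of the 8 genes called in that comparison, at 1.63-fold the Cd38+/+ level. Mlc1 was 1.23-fold higher in Cd38-/- libraries, without overlap, but did not pass the test. The 3 anchors differed by 1.02-fold to 1.10-fold, in a direction that turned with the length and GC trend removed, and the 2 potassium channels and the pump subunit had means below those of Cd38+/+, none of them past the test. In Cd38+/- astrocytes, Aqp4 was at 2.08-fold the Cd38+/+ level with no overlap, and none of the 8 genes passed the test. Within each library, the ratio of Aqp4 to each of the other 7 genes was on average higher in Cd38-/- and in Cd38+/- than in Cd38+/+ libraries.

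**Figure D1:**
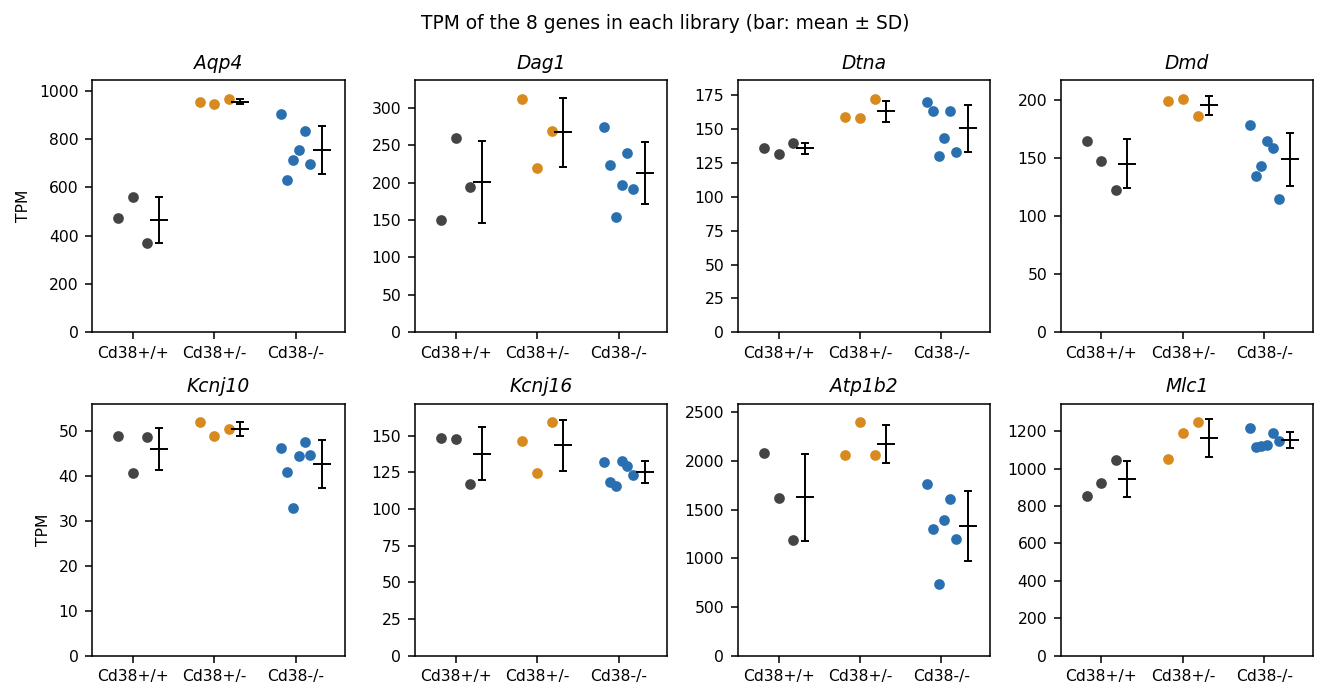
TPM (vertical axis, linear from 0) of the 8 genes in each of 12 libraries, grouped by genotype; points are libraries, and the bar beside them is the mean ± SD. Aqp4 lay between 369 and 558 TPM in the 3 Cd38+/+ libraries and between 631 and 967 TPM in the 9 others, while the genotypes overlapped for Dag1 and Kcnj16.

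Aqp4 (ENSMUSG00000024411, chromosome 18, 15389496 to 15410982, minus strand, GRCm38) was at 471, 558 and 369 TPM in the 3 Cd38+/+ libraries, with a mean of 466 ± 94.8 (SD, n = 3). It was at 955, 946 and 967 TPM in the Cd38+/- libraries, with a mean of 956 ± 10.4 (SD, n = 3). The 6 Cd38-/- libraries ranged from 631 to 906 TPM around a median of 736, with a mean of 757 ± 99.1 (SD, n = 6). The order of the levels was therefore Cd38+/-, then Cd38-/-, then Cd38+/+, with no library of one genotype inside the range of another. Against Cd38+/+, the log2 fold change in Cd38-/- libraries was 0.71 ± 0.15 (SE), with a Storey q of 0.0200 from limma over 11722 genes and an exact two-sided permutation p of 0.0119, the smallest that 6 against 3 libraries can give. The share of all tested genes called in this comparison was 8.28%, and 11.8% had genotypes that did not overlap. The call was lost without Cd38-/- library 1 (q = 0.0512) or Cd38-/- library 5 (q = 0.0585), with a log2 fold change of 0.65 and 0.68. It was also lost when log2 values were centred on the astrocyte markers (0.67, q = 0.0965) and when libraries were weighted by their quality (0.69, q = 0.314).

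For Cd38+/- against Cd38+/+, the log2 fold change of Aqp4 was 1.05 ± 0.17 (SE), with q = 0.158 from limma over 11763 genes. The exact permutation p was 0.1, which is the smallest that 3 against 3 libraries allow. In this comparison limma called none of the 8 genes and 0% of all genes tested, and 2 of the 8 had an unadjusted p under 0.05, namely Aqp4 (0.000143) and Dmd (0.0260), beside 13.5% of all genes. Between the 2 mutant genotypes, Aqp4 in Cd38-/- libraries lay below Cd38+/- by 0.35 on the log2 scale (SE 0.11), with no overlap, an exact permutation p of 0.0357 and q = 0.231 from limma over 11563 genes. That difference disappeared when libraries were centred on the astrocyte markers, at a log2 fold change of 0.0026. The comparisons of both mutant genotypes share the 3 Cd38+/+ libraries, so they are not independent of each other.

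Astrocytes are not the only source of Aqp4 in the brain, since ependymal cells of the ventricle wall also make it. The 4 ependymal markers Foxj1, Ccdc153, Rsph1 and Tmem212 summed to 1627 to 3257 TPM in Cd38+/+, 1698 to 2163 TPM in Cd38+/- and 2244 to 3416 TPM in Cd38-/- libraries, and no marker was listed at 0. The medians of these sums were 1922 TPM in Cd38+/+, 1896 TPM in Cd38+/- and 3283 TPM in Cd38-/- libraries. Against Cd38+/+, the median was higher in Cd38-/-, as Aqp4 was, but not in Cd38+/-, where Aqp4 was highest. The part of ependymal cells in the values of Aqp4 was not tested. In isolated cell populations, fewer cells of a type and less RNA per cell cannot be told apart.

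**Figure D2:**
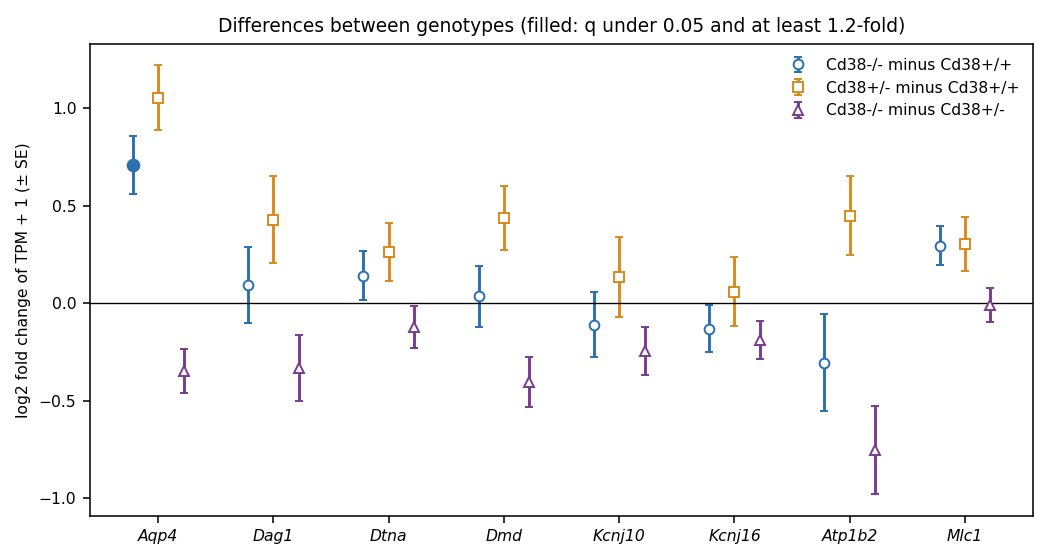
Log2 fold change of TPM + 1 (vertical axis, ± SE) of the 8 genes in the 3 genotype comparisons, with a filled symbol where q was under 0.05 and the change at least 1.2-fold. Only Aqp4 in Cd38-/- against Cd38+/+ (0.71) has a filled symbol, and all 8 values of Cd38-/- against Cd38+/- lie below 0.

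Among the anchors, Dag1 is the gene of dystroglycan, the receptor that fixes the complex to the basal lamina (ENSMUSG00000039952, chromosome 9, 108204634 to 108263958, minus strand). It was at 150.4, 259 and 194 TPM in Cd38+/+ libraries, at 312, 220.2 and 269.6 TPM in Cd38+/- libraries, and at 154 to 274 TPM with a median of 210.0 in Cd38-/- libraries. All 3 genotypes overlapped, and the spread within Cd38+/+ alone covered most of the Cd38-/- range. The log2 fold change was 0.09 ± 0.20 (SE, q = 0.453 from limma) in Cd38-/- and 0.43 ± 0.22 (SE, q = 0.268 from limma) in Cd38+/- against Cd38+/+.

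Dtna encodes alpha-dystrobrevin, a partner of dystrophin (ENSMUSG00000024302, chromosome 18, 23415135 to 23659715, plus strand). Its Cd38+/+ libraries were close together, at 136, 132 and 139.8 TPM, and its Cd38+/- libraries lay above them at 159, 159 and 172 TPM. The Cd38-/- libraries spread from 130.0 to 170.4 TPM around a median of 153 and covered both other genotypes in large part. The log2 fold change against Cd38+/+ was 0.14 ± 0.13 (SE, q = 0.294 from limma) in Cd38-/- and 0.26 ± 0.15 (SE, q = 0.282 from limma) in Cd38+/- libraries.

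Dmd, the dystrophin gene (ENSMUSG00000045103, chromosome X, 82948870 to 85206141, plus strand), gives several proteins of different length from separate promoters, which a single value per gene does not separate. Its level was 165, 147 and 123 TPM in Cd38+/+ libraries and 199, 201 and 186 TPM in Cd38+/- libraries. Cd38-/- libraries ranged from 115 to 178 TPM with a median of 151. Here Cd38+/- stood above both other genotypes without overlap, while Cd38-/- and Cd38+/+ shared 1 range. On the log2 scale the difference was 0.03 ± 0.16 (SE, q = 0.519 from limma) in Cd38-/- against Cd38+/+ and 0.44 ± 0.16 (SE, q = 0.208 from limma) in Cd38+/- against Cd38+/+. Between the mutants, Dmd in Cd38-/- was lower than in Cd38+/- by 0.40 (SE 0.13), with an exact permutation p of 0.0238 and q = 0.227 from limma.

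Of the potassium channels, Kcnj10 encodes the inward rectifier Kir4.1 (ENSMUSG00000044708, chromosome 1, 172341210 to 172374085, plus strand). It was the lowest of the 8 genes in TPM, at 48.8, 40.6 and 48.7 in Cd38+/+ libraries and 52.0, 48.9 and 50.6 in Cd38+/- libraries. Cd38-/- libraries ranged from 32.8 to 47.5 TPM with a median of 44.5, below each Cd38+/- library and overlapping Cd38+/+. Against Cd38+/+, the difference on the log2 scale was -0.11 ± 0.17 (SE, q = 0.407 from limma) for Cd38-/- and 0.14 ± 0.21 (SE, q = 0.494 from limma) for Cd38+/-, whose lowest library lay just above the highest Cd38+/+ library.

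Kcnj16 encodes Kir5.1, which forms channels with Kir4.1 that respond to pH (ENSMUSG00000051497, chromosome 11, 110968033 to 111027968, plus strand). Values were 148, 148 and 117 TPM in Cd38+/+, 146, 125 and 159 TPM in Cd38+/-, and 116 to 133 TPM with a median of 126 in Cd38-/- libraries. Every pair of genotypes overlapped. Its log2 fold change was -0.13 ± 0.12 (SE, q = 0.305 from limma) in Cd38-/- and 0.06 ± 0.18 (SE, q = 0.566 from limma) in Cd38+/- against Cd38+/+. In an alternative without the trend of each library with transcript length and GC content, Kcnj16 was called lower in Cd38-/- libraries, at a log2 fold change of -0.56 (q = 0.0293 from limma).

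Atp1b2 encodes the beta-2 subunit of the sodium pump, which is also the protein that the ACSA-2 antibody recognises, so the cells were selected on the product of this gene (ENSMUSG00000041329, chromosome 11, 69599736 to 69605942, minus strand). It was the most abundant of the 8, at 2083, 1618 and 1188 TPM in Cd38+/+ libraries. Cd38+/- libraries were at 2060, 2398 and 2063 TPM. Cd38-/- libraries ranged from 732 to 1761 TPM with a median of 1347, all below the Cd38+/- libraries and overlapping Cd38+/+. The log2 fold change was -0.30 ± 0.25 (SE, q = 0.275 from limma) in Cd38-/- and 0.45 ± 0.20 (SE, q = 0.236 from limma) in Cd38+/- against Cd38+/+. Between the mutants, Atp1b2 in Cd38-/- lay below Cd38+/- by 0.75 (SE 0.23), with an exact permutation p of 0.0357 and q = 0.200 from limma. The lowest value, 732 TPM, belonged to Cd38-/- library 3, which also had the highest sum of 5 oligodendrocyte markers, 17196 TPM against 800.0 to 10304 TPM in the 11 other libraries, and its part in the result was not tested. Without that library the Cd38-/- to Cd38+/- comparison gave a log2 fold change of -0.59.

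Mlc1, the volume-regulation gene (ENSMUSG00000035805, chromosome 15, 88955884 to 88979007, minus strand), was at 856, 924 and 1045 TPM in Cd38+/+ libraries and 1053, 1188 and 1247 TPM in Cd38+/- libraries. Cd38-/- libraries were tightly grouped, from 1117 to 1215 TPM with a median of 1136. Both mutant genotypes lay above Cd38+/+ without overlap, though the highest Cd38+/+ and the lowest Cd38+/- library were close. In Cd38-/- libraries, the log2 fold change of 0.30 ± 0.10 (SE) had q = 0.0644 from limma and an exact permutation p of 0.0119. It passed the test without Cd38+/+ library 3 (0.37, q = 0.0170) and turned to -0.05 (q = 0.414) once the trend with transcript length and GC content was removed. In Cd38+/- against Cd38+/+ the log2 fold change was 0.31 ± 0.14 (SE, q = 0.237 from limma), and between the mutants it was -0.01 ± 0.09 (SE, q = 0.707 from limma).

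Across the 8 genes, 1 was called in Cd38-/- against Cd38+/+, beside 8.28% of all genes, and 2 did not overlap, beside 11.8%. Their median log2 fold change was 0.06 beside 0.15 over all genes tested. In Cd38+/- against Cd38+/+, 8 of 8 values were above 0, beside 64.4% of all genes, with a median of 0.37 beside 0.18. There, 5 of 8 did not overlap beside 22.5% of all genes. For Cd38-/- against Cd38+/-, 8 of 8 values were below 0, with a median of -0.29 beside -0.02 over all genes. The 12 astrocyte markers had a median log2 fold change of 0.24 in Cd38+/- against Cd38+/+ and -0.25 in Cd38-/- against Cd38+/-. The fall between the mutants was thus near that of astrocyte markers and not particular to the 8 genes. Of all genes, 45.4% lay above 0 in the comparison of Cd38-/- with Cd38+/-. In that comparison 0 of 8 were called by limma, beside 0.0346% of all genes, 3 had an unadjusted p under 0.05, beside 11.2% of all genes, and 4 did not overlap, beside 5.73% of all genes. These directions depended on scaling: centring on astrocyte markers left only Dmd and Atp1b2 below 0 in the comparison of the mutants, and it turned Dtna, Kcnj10, Kcnj16 and Mlc1 below 0 in Cd38+/- against Cd38+/+. The direction of Aqp4 against Cd38+/+ held in every alternative for both mutant genotypes, between 0.45 and 0.85 in Cd38-/- and between 0.67 and 1.19 in Cd38+/-.

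Since a ratio of 2 genes within a library does not depend on how the library is scaled, Aqp4 was set against each other gene library by library, as log2 of Aqp4 minus log2 of the other gene, both TPM + 1. Against the potassium channels, Aqp4 was 10.3 times Kcnj10 in Cd38+/+, 18.9 times in Cd38+/- and 17.8 times in Cd38-/- libraries. These and the further ratios not on the log2 scale are arithmetic means of the TPM ratios of single libraries. The log2 ratios to Kcnj10 were 3.24, 3.75 and 2.90 in Cd38+/+ libraries and 3.92 to 4.41 in Cd38-/- libraries, a difference of 0.82 with no overlap. Against Kcnj16, Aqp4 was 3.37 times as high in Cd38+/+, 6.72 times in Cd38+/- and 6.03 times in Cd38-/- libraries. Its log2 values were 1.66, 1.91 and 1.65 in Cd38+/+ libraries and 2.41 to 2.77 in Cd38-/- libraries, a difference of 0.84. Aqp4 RNA therefore increased relative to both channel genes in Cd38-/- libraries, each with an exact permutation p of 0.0119.

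Relative to the pump subunit, Aqp4 was at 0.294 of Atp1b2 in Cd38+/+, 0.442 in Cd38+/- and 0.603 in Cd38-/- libraries. The log2 ratios were -2.14, -1.53 and -1.69 in Cd38+/+ libraries and -1.04 to -0.03 in Cd38-/- libraries. This was the widest difference of the 7 ratios, 1.01 with an exact permutation p of 0.0119, and it was 0.86 without Cd38-/- library 3.

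Among the anchors, Cd38+/+ libraries had 3.22 times as much Aqp4 as Dmd, Cd38+/- libraries 4.90 times and Cd38-/- libraries 5.12 times. Its Cd38-/- and Cd38+/+ values did not overlap and differed by 0.67 on the log2 scale (exact permutation p = 0.0119). The ratio to Dag1 was 2.39 in Cd38+/+ and 3.62 in Cd38-/-, and that to Dtna 3.45 and 5.05. Both overlapped between the genotypes, differed by 0.61 and 0.57 on the log2 scale and had an exact permutation p of 0.0238. Aqp4 reached 0.503 of Mlc1 in Cd38+/+, 0.826 in Cd38+/- and 0.655 in Cd38-/- libraries, and the log2 difference of 0.41 between Cd38-/- and Cd38+/+ was the smallest of the 7 (exact permutation p = 0.0238).

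In all, 7 of 7 ratios were higher in Cd38-/- than in Cd38+/+ libraries with an exact p under 0.05, and 4 did not overlap. Aqp4 stood high among all genes in this comparison, and the same ratio to each of 11721 tested genes was higher in 83.7%, had an exact p under 0.05 in 43.6% and did not overlap in 27.8%. The p-values of the ratios are not adjusted over the 21 ratios computed, which share Aqp4 as their numerator. The ratios to Dmd, Kcnj10, Kcnj16 and Atp1b2 kept an exact p under 0.05 when any 1 library was left out. Those are the ratios that did not overlap, which largely sets this outcome in advance. Without Cd38+/+ library 3, which had the lowest Aqp4, the ratios to Dag1, Dtna and Mlc1 differed by 0.46, 0.39 and 0.18 (exact permutation p = 0.107, 0.0714 and 0.143, where 6 against 2 libraries cannot go below 0.0357). After removal of the trend with length and GC content, Aqp4 still exceeded the other 7 genes by 0.55 to 1.06 on the log2 scale, with no test.

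**Figure D3:**
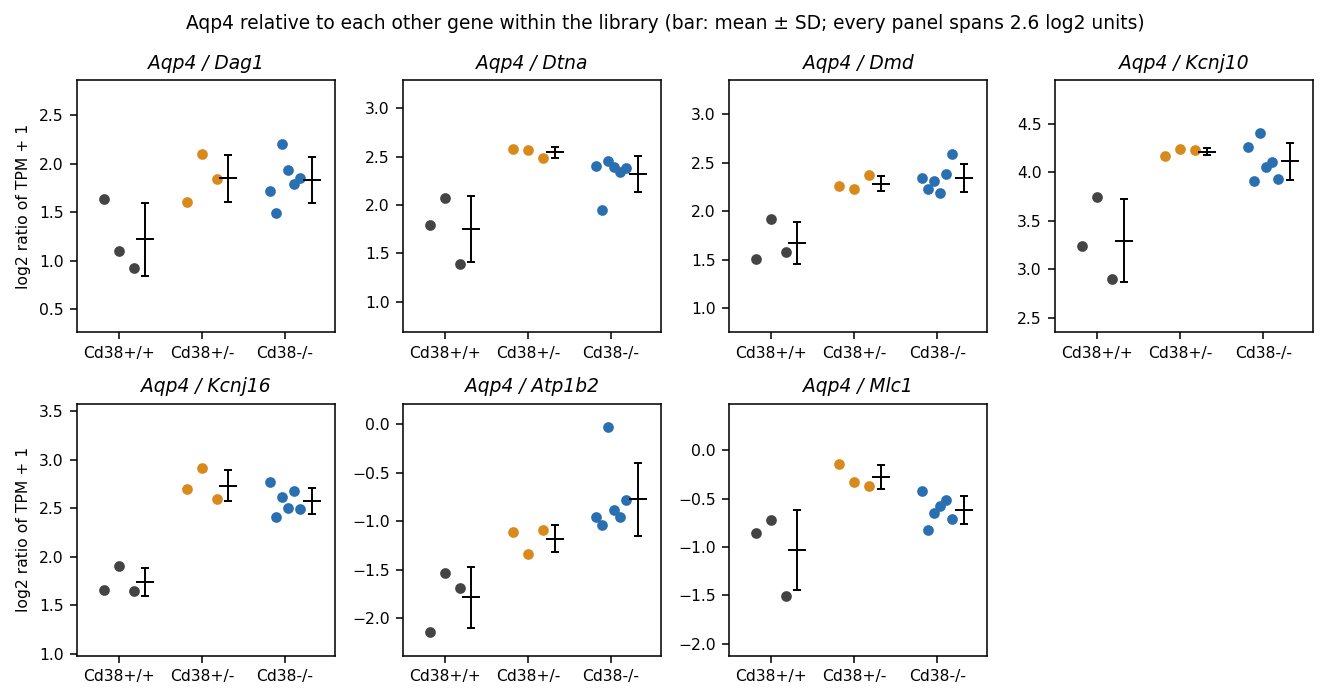
Log2 ratio of Aqp4 to each of the other 7 genes (vertical axis, TPM + 1, each panel of equal height) in each library by genotype, with the mean ± SD. The Cd38-/- libraries lay above all Cd38+/+ libraries for Dmd, Kcnj10, Kcnj16 and Atp1b2, and Cd38-/- library 3 stands apart for Atp1b2 at -0.03.

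In Cd38+/- against Cd38+/+, the 7 ratios were higher by 0.61 to 1.00 on the log2 scale. The genotypes did not overlap for 6 of the 7, Dag1 being the exception, where the same held for 55.8% of all genes and 91.9% had a positive difference. With 3 libraries against 3, the exact permutation p could not fall below 0.1, the value of those 6 ratios. Between the mutants, only Aqp4 to Mlc1 differed with an exact p under 0.05, being lower in Cd38-/- by 0.34 without overlap (exact permutation p = 0.0119; 0.0714 without Cd38+/- library 1). The share of all genes with such a p was 27.9%, and 18.6% did not overlap, as against 3 of the 7 (Dtna, Atp1b2 and Mlc1). A positive difference was found for 6.56% of all genes and for Dmd and Atp1b2 among the 7. For Dag1, Dmd, Kcnj10 and Kcnj16 the ratios of the mutants overlapped and differed by -0.16 to 0.06.

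Whether the genes follow Aqp4 from library to library was asked first within Cd38-/-, the genotype with 6 libraries, which share their scaling among all their genes. Pearson's r of log2(TPM + 1) with Aqp4 was positive for all 7. It was highest for Mlc1 (r = 0.90, exact permutation p = 0.0139; Spearman's rho = 0.83, p = 0.0583), followed by Dmd (r = 0.78, p = 0.0653; rho = 0.89, p = 0.0333) and Kcnj16 (r = 0.76, p = 0.0903; rho = 0.66, p = 0.175), all from exact permutations. For Dag1, Atp1b2, Kcnj10 and Dtna, r was 0.57, 0.57, 0.49 and 0.45, with exact permutation p from 0.222 to 0.368. The 7 p-values of r are not adjusted for their number. Leaving out Cd38-/- libraries 1 and 2, those farthest from the median Aqp4, r was 0.77 for Mlc1, 0.74 for Dmd, 0.61 for Kcnj16 and 0.53 to 0.97 for the others over 4 libraries. The median r of 11357 genes with Aqp4 within Cd38-/- was 0.19, and Mlc1 ranked 60th.

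Deviations from each genotype's mean over all 12 libraries gave an r of 0.71 for Dmd, 0.69 for Kcnj16 and 0.56 for Atp1b2, but -0.10 for Mlc1, whose highest Cd38+/+ value fell in the library with the lowest Aqp4. Ranked by r over 12 libraries, the genes most like Aqp4 included Gabra4 (0.96), Cog2 (0.95), Gabrg1 (0.95) and Mfsd9 (0.95). Gabra4 and Gabrg1 encode subunits of GABA-A receptors. Of the 7 partners, Mlc1 ranked 1167th of 11357 genes (r = 0.70), Dmd 1374th (r = 0.67) and Dtna 1684th, while Kcnj16 ranked 5409th and Kcnj10 6158th (r = 0.16). These values describe the 12 libraries and mix the differences between genotypes with those within them.

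The rest of the endfoot machinery was followed in 7 lists with 59 genes, of which 52 were tested in Cd38-/- against Cd38+/+. There, 3 were called higher and 1 lower, which is close to the 8.28% of all genes called. Of 52 values, 35 lay above 0, close to the 64.3% of all genes, with a median log2 fold change of 0.20 beside 0.15. The genes called included Lamb1, Clcn2 and Pomt1. In Cd38+/- against Cd38+/+ limma called none of 51 genes (9 with an unadjusted p under 0.05, beside the 13.5% of all genes), and in the comparison of the mutants none of 52 (9 with an unadjusted p under 0.05, beside the 11.2% of all genes).

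None of the 9 tested genes of the remaining dystrophin complex passed the test in Cd38-/- against Cd38+/+. Sgce, a sarcoglycan and one of the most abundant, had means of 99.4, 105 and 124 TPM in Cd38+/+, Cd38+/- and Cd38-/- libraries. Of 8 tested ligands in the basal lamina, 1 was called higher, the laminin chain gene Lamb1 (log2 fold change 2.30, q = 0.0362 from limma). It was listed between 0 and 10.8 TPM in Cd38+/+ and between 8.45 and 23.8 TPM in Cd38-/- libraries, with overlap. Its Cd38+/+ mean of 4.19 TPM was below the filter on low values. Lamb1 was therefore tested only through its Cd38-/- mean of 15.6 TPM, and its call is weak evidence of a change. Lamb2 and Lama2, the most abundant laminin genes, had means of 84.9 and 49.2 TPM in Cd38+/+ and 99.3 and 41.9 TPM in Cd38-/- libraries and did not pass.

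Dystroglycan binds laminin only through a sugar chain, and 12 of 12 genes that build it were tested. In Cd38-/- against Cd38+/+, 10 of their values lay above 0 and 2 below, beside 64.3% of all genes above 0. The median log2 fold change of the 12 was 0.36 beside 0.15 over all genes. Pomt1 was thus not typical of this list. Pomt1, which starts the chain with mannose, was called lower, at 58.4 to 76.1 TPM in Cd38+/+ and 33.3 to 55.6 TPM in Cd38-/- libraries (log2 fold change -0.61, q = 0.0479 from limma). The most abundant, B4gat1 and Pomgnt1, had means of 180.0 and 60.5 TPM in Cd38+/+ and 192 and 67.5 TPM in Cd38-/- libraries and did not pass.

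Of the other aquaporin genes, none of 3 tested passed. Aqp11 had means of 39.7, 30.3 and 32.5 TPM in Cd38+/+, Cd38+/- and Cd38-/- libraries. Aqp9 was at 0.06 TPM in 1 Cd38+/+ library and at up to 47.0 TPM in the others of that genotype, against 17.4 to 19.8 TPM in Cd38-/- libraries. The increase of Aqp4 was therefore the only one called among the aquaporins tested.

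Among the other potassium channels, none of 6 tested passed. Kcnk1, a leak channel of astrocytes, had means of 177, 266 and 211 TPM in Cd38+/+, Cd38+/- and Cd38-/- libraries, and Kcnn2, a calcium-activated channel, had 172, 194 and 154 TPM. None of 8 further sodium pump subunits passed. Fxyd1, a regulator of the pump and one of the most abundant of these, had means of 1159, 978 and 960 TPM.

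Clcn2 encodes the chloride channel that is anchored by GlialCAM and Mlc1. Of the 6 genes in the list of Mlc1 partners and volume regulation, only Clcn2 passed. It was at 17.0 to 37.4 TPM in Cd38+/+ libraries, 60.4 to 63.6 TPM in Cd38+/- libraries and 42.1 to 56.1 TPM in Cd38-/- libraries, and the genotypes did not overlap. Its log2 fold change of 1.00 in Cd38-/- against Cd38+/+ had q = 0.0237 from limma. Hepacam, the gene of GlialCAM, had means of 391, 415 and 332 TPM, and Gpr37l1, a receptor that binds this complex, had 2686, 3678 and 3019 TPM, neither past the test. The calls of Lamb1, Clcn2 and Pomt1 were lost in 12 of 23, 9 of 24 and 16 of 24 alternatives, single left-out libraries included, with no change of sign.

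**Figure D4:**
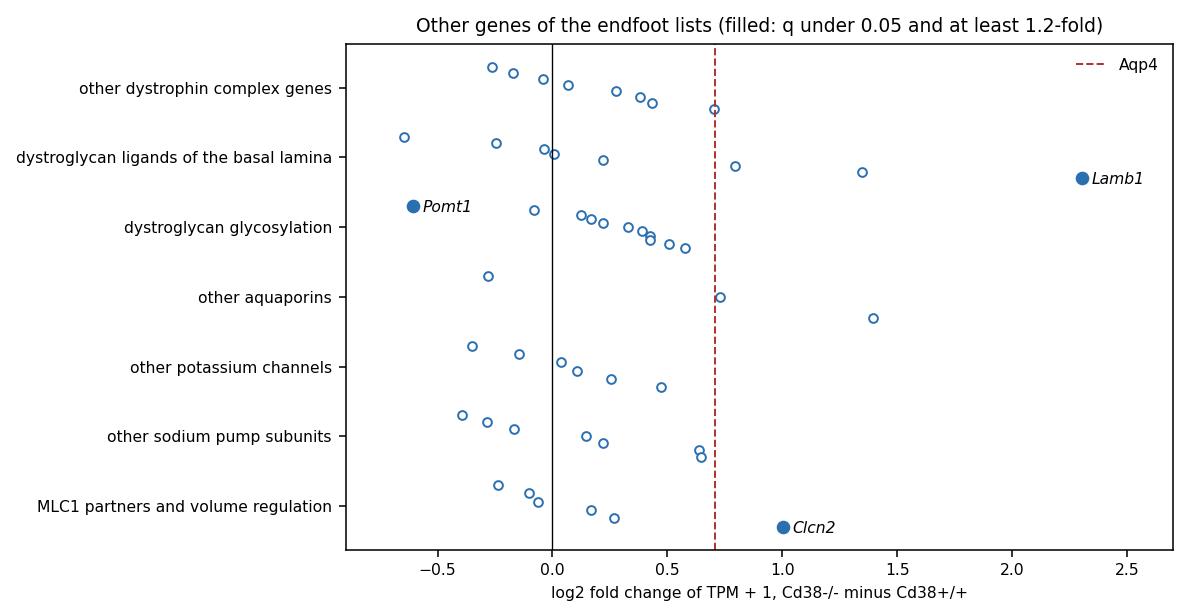
Log2 fold change of TPM + 1 (horizontal axis, Cd38-/- minus Cd38+/+) for tested genes of 7 lists, 1 point a gene reported here; filled and named points passed the test, and the dashed line marks Aqp4 (0.71). Lamb1 and Clcn2 lie to the right of Aqp4 and Pomt1 lies below 0.

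Among the markers of other cell types, only those of microglia and choroid plexus held called genes, in Cd38-/- against Cd38+/+. No marker of neurons, oligodendrocytes, endothelial, mural or ependymal cells was called there, and no marker at all in the other comparisons. Of 3 tested microglial markers, 1 was called higher. The 6 microglial markers summed to 6.23 to 17.9 TPM in Cd38+/+, 23.6 to 26.5 TPM in Cd38+/- and 18.5 to 40.8 TPM in Cd38-/- libraries, and each of them had a value of 0 in some Cd38+/+ library. For 4 choroid plexus markers the sums were 45.6 to 300.4, 187 to 7038 and 212 to 1865 TPM, and 3 of the 4 were called higher in Cd38-/- against Cd38+/+. The part of these in the values of Aqp4, Mlc1 and the called list genes was not tested.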

How the data were processed

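According to the study's methods, RNA of bead-isolated astrocytes was depleted of rRNA and amplified with a SMART-Seq v4 kit, reads were trimmed with Trim Galore 0.6.4 and mapped to mm10 with STAR 2.7.1a, and genes were quantified with RSEM 1.2.28. The authors deposited TPM values, 1 column per library, which sum to 1000000. Depth is therefore unknown, and no counting interval is given. The annotation is not given in the sources used here; positions are from GENCODE on GRCm38. The kit does not mark strand, and antisense genes overlap Aqp4 and Dtna.

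A gene was kept where its average in 1 or both genotypes compared exceeded 5 TPM. log2(TPM + 1) was fitted with limma 3.58.1 (eBayes with trend, R 4.3.3) on the libraries compared, and a gene was called at Storey q under 0.05 and a 1.2-fold change, the thresholds of the study. Single values were compared with two-sided exact permutation tests (scipy 1.17.1). Procedures were tested on simulated data. Named genes were the 8, Cd38, the 2 most abundant and all called genes of each list, and the 5 most correlated with Aqp4; a few genes under this rule are not reported here. The genes and lists were chosen with earlier results of these data known. Alternatives varied the pseudocount, filter, adjustment, scaling, weights, length and GC trend, replicate block, and libraries left out.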

Additional observations from a re-analysis of the deposited data

Results flagged for a closer look

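In 16 groups of 6 Cd38-/- libraries (the TPM of each gene with Cd38, and the ratios of Aqp4), 2 held a library far from the others by Dixon's criterion, which chance alone passes in about 1 of 20 groups. The log2 ratio of Aqp4 to Dtna was 1.95 in Cd38-/- library 2, below the nearest other library at 2.34. This library had the lowest Aqp4 of its genotype, 631 TPM, with Dtna at 163 TPM. The log2 ratio of Aqp4 to Atp1b2 was -0.033 in Cd38-/- library 3, above the nearest other library at -0.78. There Atp1b2 was at 732 TPM and Aqp4 at 715 TPM. That library also had the lowest Kcnj10 and Dag1 of its genotype and the highest oligodendrocyte marker sum of all 12 libraries.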

How the results depend on the processing

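The number of the 8 genes called in Cd38-/- against Cd38+/+ (1 as reported) was 0 with library quality weights, with centring on astrocyte markers, with the replicate block, with the block and the length and GC trend removed, and with a log2 fold change of 1.2 as threshold. It was 2 with the length and GC trend removed (Aqp4 and Kcnj16) or all 12 libraries in one fit (Aqp4 and Mlc1), and 0 to 2 with single libraries left out. Over all genes tested, 970 were called as reported, 1 with quality weights, 28 with centring, 2 with either block and 337 with the higher threshold. The trend removed gave 1319, one fit 1822, and single libraries left out 74 to 3119. In Cd38+/- against Cd38+/+ (0 as reported) the number of the 8 was 1, Aqp4, without a filter (q = 0.0235), with quality weights (q = 0.0304) and with all 12 libraries in one fit (q = 0.00347). All genes called there numbered 663, 30 and 1464. In Cd38-/- against Cd38+/- (0 as reported) the number of the 8 was 5 with quality weights, beside 3120 of 11563 genes. The labels do not say whether equal replicate numbers pair the libraries. Same-numbered deviations correlated at -0.16 to 0.32 over the 3 comparisons and differently numbered ones at -0.40 to 0.43, which cannot settle the point. Under the replicate block Aqp4 in Cd38-/- against Cd38+/+ was 0.69 (q = 0.318). The median log2 fold change of all genes, 0.15 in Cd38-/- and 0.18 in Cd38+/- against Cd38+/+, became 0.04 and 0.06 with median-ratio scaling, 0.01 and 0.03 with quantile normalization, and -0.07 and -0.05 with the length and GC trend removed. Centring on astrocyte markers moved it from -0.02 to 0.33 between the mutants and to -0.20 in Cd38+/- against Cd38+/+.

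Values that changed sign were all of genes not called as reported, and the cause was not tested. With the length and GC trend removed, the values in Cd38-/- against Cd38+/+ were -0.23 for Dag1, -0.24 for Dtna, -0.30 for Dmd and -0.050 for Mlc1, and with the block as well -0.27, -0.25, -0.31 and -0.10. In Cd38+/- against Cd38+/+ they were -0.033 for Dag1, -0.13 for Dtna, -0.35 for Kcnj10, -0.45 for Kcnj16 and -0.11 for Mlc1, alike with the block. Mlc1 between the mutants was 0.051, and 0.00068 with the block. With median-ratio scaling Dag1 and Dmd in Cd38-/- against Cd38+/+ were -0.022 and -0.081, Kcnj16 in Cd38+/- against Cd38+/+ was -0.072 and Mlc1 between the mutants 0.011. With quality weights Dmd was -0.063 in Cd38-/- against Cd38+/+. Centring on astrocyte markers gave -0.0018 for Dmd in Cd38-/- and -0.12 for Dtna, -0.25 for Kcnj10, -0.33 for Kcnj16 and -0.081 for Mlc1 in Cd38+/- against Cd38+/+. Between the mutants it gave 0.0026 for Aqp4, 0.016 for Dag1, 0.23 for Dtna, 0.10 for Kcnj10, 0.16 for Kcnj16 and 0.34 for Mlc1. With single libraries left out, Dag1 and Dmd in Cd38-/- against Cd38+/+ ranged from -0.097 to 0.29 and from -0.079 to 0.13, and Kcnj16 in Cd38+/- against Cd38+/+ from -0.054 to 0.15. Mlc1 between the mutants ranged from -0.080 to 0.042, and the log2 ratio of Aqp4 to Dag1 from -0.13 to 0.11.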
